A study of Mus musculus with 4 samples.

Results

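Interferon-stimulated genes were examined here as a list of 46 symbols that respond to type I or type II interferon. They were picked by name, and all 46 were found among the 24340 genes of the deposited expression table. Of these, 26 had a mean of at least 1 FPKM (fragments per kilobase of transcript per 1000000 fragments) over the 4 libraries and are called measured, as were 10471 genes in all. The other 20 members are described by their levels. The 4 libraries came from lineage-negative, Kit-positive bone marrow cells of C57BL/6 mice, all carrying JAK2V617F, the activated form of the kinase JAK2 found in myeloproliferative neoplasms. They were Tet2-/- with ruxolitinib, Tet2-/- control, Tet2+/+ with ruxolitinib and Tet2+/+ control, with 1 library each. The sources used here do not give the dose and duration of ruxolitinib, the age and number of mice, or the promoter that drove the recombinase. The series' design text describes conditional inactivation in blood cells and a cross to Flt3ITD, whereas the labels of these 4 libraries name JAK2V617F alone. With 1 library per group no difference has a replicate check, no p-value was computed, and "higher" and "lower" describe these libraries.

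Interferons are secreted when cells sense viral or displaced nucleic acid. Type I interferon binds a receptor served by the kinases JAK1 and TYK2, and the signal leads to a complex with STAT2 and IRF9 that binds the interferon-stimulated response element (ISRE) of target genes. Interferon gamma binds a receptor served by JAK1 and JAK2, and its signal ends at the gamma-activated site (GAS), a STAT binding site. Ruxolitinib blocks JAK1 and JAK2 and so acts on both routes. Many of these genes are also transcribed without interferon, through basal STAT, IRF and lineage factors, and interferon exposure drives quiescent blood stem cells into cycle.

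The promoter sequences show which of the 2 elements the members carry. RefSeq promoter windows on GRCm38.p6, which run from 250 bases before to 50 bases after each annotated start, were matched by symbol for 34 of the 46 members, that is all but Dhx58, Iigp1, Mx1, Mx2, Nlrc5, Oas2, Parp14, Parp9, Rtp4, Tap2, Usp18 and Zbp1. An ISRE core was searched as GAAA, 2 free bases (NN) and GAAA, and a STAT site as TTCNNNGAA, each on both strands; a match of one overlapped a match of the other in Bst2. The ISRE core was present in 16 of 34 members, or 47.1%, against 3.99% of all 27025 genes with a window. The STAT site was present in 12 of 34, or 35.3%, against 9.55% of all genes. Of the 22 measured members with a window, 10 held an ISRE core, and of the 12 members under the filter 6 did. The STAT site was in 10 of the 22, or 45.5%, and in 2 of the 12, or 16.7%. Among all genes with a window, 8.39% of the measured ones held it and 10.1% of those under the filter. Both elements stood in 5 members, namely Bst2, Eif2ak2, Oas1a, Gbp7 and Igtp. A match describes the letters in this window and is not evidence of binding.

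Stretches with the ISRE core in capitals follow for 6 measured members and 3 members under the filter, each written 5' to 3' on the strand of its gene. A core on the opposite strand reads TTTC, NN and TTTC, and capitals run together where cores overlap.
Isg15 (chr4:156200850-156200921, minus strand): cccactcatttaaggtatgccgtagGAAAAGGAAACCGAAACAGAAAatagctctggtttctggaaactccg
Oas1a (chr5:120907505-120907570, minus strand): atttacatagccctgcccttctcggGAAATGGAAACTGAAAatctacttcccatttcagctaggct
Gbp2 (chr3:142620579-142620638, plus strand): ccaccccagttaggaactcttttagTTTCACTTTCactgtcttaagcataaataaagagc
Trim30a (chr7:104465195-104465254, minus strand): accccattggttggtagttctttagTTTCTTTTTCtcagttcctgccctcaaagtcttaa
Irgm1 (chr11:48871410-48871475, minus strand): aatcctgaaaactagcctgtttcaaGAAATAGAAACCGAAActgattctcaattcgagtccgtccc
Bst2 (chr8:71537562-71537627, minus strand): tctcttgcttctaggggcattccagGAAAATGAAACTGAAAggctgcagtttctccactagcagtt
Ifit1 (chr19:34640760-34640838, plus strand): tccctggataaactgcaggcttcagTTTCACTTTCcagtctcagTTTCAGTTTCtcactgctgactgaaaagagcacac
Ifit3 (chr19:34583348-34583441, plus strand): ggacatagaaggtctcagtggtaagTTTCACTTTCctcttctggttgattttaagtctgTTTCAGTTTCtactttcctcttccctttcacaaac
Rsad2 (chr12:26456538-26456597, minus strand): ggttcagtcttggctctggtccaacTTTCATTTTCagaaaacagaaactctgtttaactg
The Isg15 stretch holds 3 overlapping cores, the first at -78 and the last at -66, counted from the start site with the base before it as -1. Ifit1 and Ifit3 hold 2 cores each, at -104 and -85 in Ifit1 and at -156 and -122 in Ifit3, although both genes were close to 0 FPKM in all 4 libraries. The element was thus present in members that were measured and in members near 0.

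The STAT site is shown in capitals for 3 members, of which Irf1 and Psmb8 were abundant and Ifit2 was low.
Irf1 (chr11:53769899-53769957, plus strand): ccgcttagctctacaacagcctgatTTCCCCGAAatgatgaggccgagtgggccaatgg
Psmb8 (chr17:34198073-34198131, plus strand): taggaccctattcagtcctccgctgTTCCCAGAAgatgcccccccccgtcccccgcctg
Ifit2 (chr19:34550444-34550486, plus strand): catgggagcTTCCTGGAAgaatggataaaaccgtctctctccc
The Irf1 site at -90 and the Psmb8 site at -97 lay near the start, and the Ifit2 site at -241 lay at the far end of the window.

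The labels name a gate for immature blood cells, but mast cell transcripts were abundant in all 4 libraries. The 11 mast cell markers summed to 22195 and 18401 FPKM in the knockout ruxolitinib and control libraries and 30131 and 26440 FPKM in the wild-type ruxolitinib and control libraries, although Cpa3 among them is listed at 0 in all 4. Of 6 markers of plasmacytoid dendritic cells, the main producers of type I interferon, Siglech and Ly6d were listed at 0 in all 4 libraries and only Bst2, itself a member, reached the filter. Of 9 monocyte and macrophage markers 4 were measured, and the list summed to between 14.7 FPKM in the knockout control and 22.1 FPKM in the wild-type ruxolitinib library. Neutrophil and B cell lists had no measured gene, and the T and NK cell list had 1, Ncr1. Tet2 itself was at 4.39 and 3.62 FPKM in the knockout ruxolitinib and control libraries and at 5.05 and 4.69 FPKM in the wild-type ones, so its level over the whole gene does not show the knockout, and a deletion of part of the gene cannot be checked from it. Xist was at 62.2 and 53.2 FPKM in the knockout ruxolitinib and control libraries and at 0.0309 and 0.0241 FPKM in the wild-type ones, and Ddx3y showed the opposite split, so genotype and sex cannot be told apart. Steps between low values pointed to 52.1, 54.7, 47.7 and 44.2 fragments for 1 FPKM on 1 kilobase in the knockout ruxolitinib, knockout control, wild-type ruxolitinib and wild-type control libraries. In bulk RNA, fewer cells of a type and less RNA per cell cannot be told apart.

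Antigen processing genes were among the most abundant members, and several classical antiviral genes were at or near 0. The 6 most abundant members were Bst2, Psmb8, Tap2, Psmb9, Tap1 and Ifi35, which serve peptide supply to MHC class I molecules or, for Bst2 and Ifi35, are constitutively detectable interferon-inducible proteins. Psmb8, a catalytic subunit of the immunoproteasome, was at 126.7 FPKM in the knockout ruxolitinib, 115.4 in the knockout control, 142.2 in the wild-type ruxolitinib and 127.9 in the wild-type control library. Bst2, or tetherin, which holds budding virions at the cell surface, was at 113.9, 127.0, 121.5 and 139.4 FPKM in the same order. A further 14 members had means between 5 and 20 FPKM, among them the ISG15 protease Usp18, the RNA editor Adar, the RNA-dependent kinase Eif2ak2 and the RNA helicase Ddx58, or RIG-I. The last 6 measured members, Isg15, Isg20, Oas1a, Oasl1, Gbp2 and Parp14, lay under a mean of 5 FPKM.

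Of the 20 members under the filter, 9 stayed under 0.1 FPKM in every library. They were Ifit1, Ifit3, Mx2, Ifi44, Rtp4, Oas2, Oasl2, Irf8 and Iigp1, of which Ifi44 and Oas2 were listed at 0 in all 4 libraries. Ifit1, which binds viral RNA caps, was at 0.00755 FPKM in the knockout ruxolitinib, 0.0298 in the knockout control, 0.0341 in the wild-type ruxolitinib and 0.0368 in the wild-type control library. Irf8, a factor of monocyte and dendritic cell development, did not exceed 0.0170 FPKM. The status column of the authors' deposited table marks none of the 46 members as a failed fit or as having too many fragments. A further 6 members, Mx1, Rsad2, Zbp1, Oas3, Gbp3 and Nlrc5, exceeded 0.1 FPKM in some library with means under 0.5 FPKM. C57BL/6 mice carry a defective Mx1 allele, and Mx1 did not exceed 0.108 FPKM.

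The last 5 unmeasured members, Irf7, Dhx58, Ifit2, Xaf1 and Ifih1, had means between 0.5 and 1 FPKM. Irf7, the IRF that amplifies type I interferon output, was at 0.844 and 0.520 FPKM in the knockout ruxolitinib and control libraries and at 0.893 and 1.15 FPKM in the wild-type ones. Its mean of 0.852 FPKM was the highest outside the filter, and Gbp2 at 1.93 FPKM was the lowest inside it. Ifit2, an RNA-binding antiviral protein, was at 1.41 and 0.984 FPKM in the knockout ruxolitinib and control libraries and at 0.631 and 0.353 FPKM in the wild-type ruxolitinib and control libraries. These values rest on about 151, 111, 62 and 32 fragments, if its median coding transcript length holds, with 95% Poisson intervals of 1.19 to 1.65, 0.810 to 1.19, 0.484 to 0.809 and 0.241 to 0.498 FPKM that cover counting error only. Both knockout libraries were thus above both wild-type libraries for Ifit2.

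**Figure D1:**
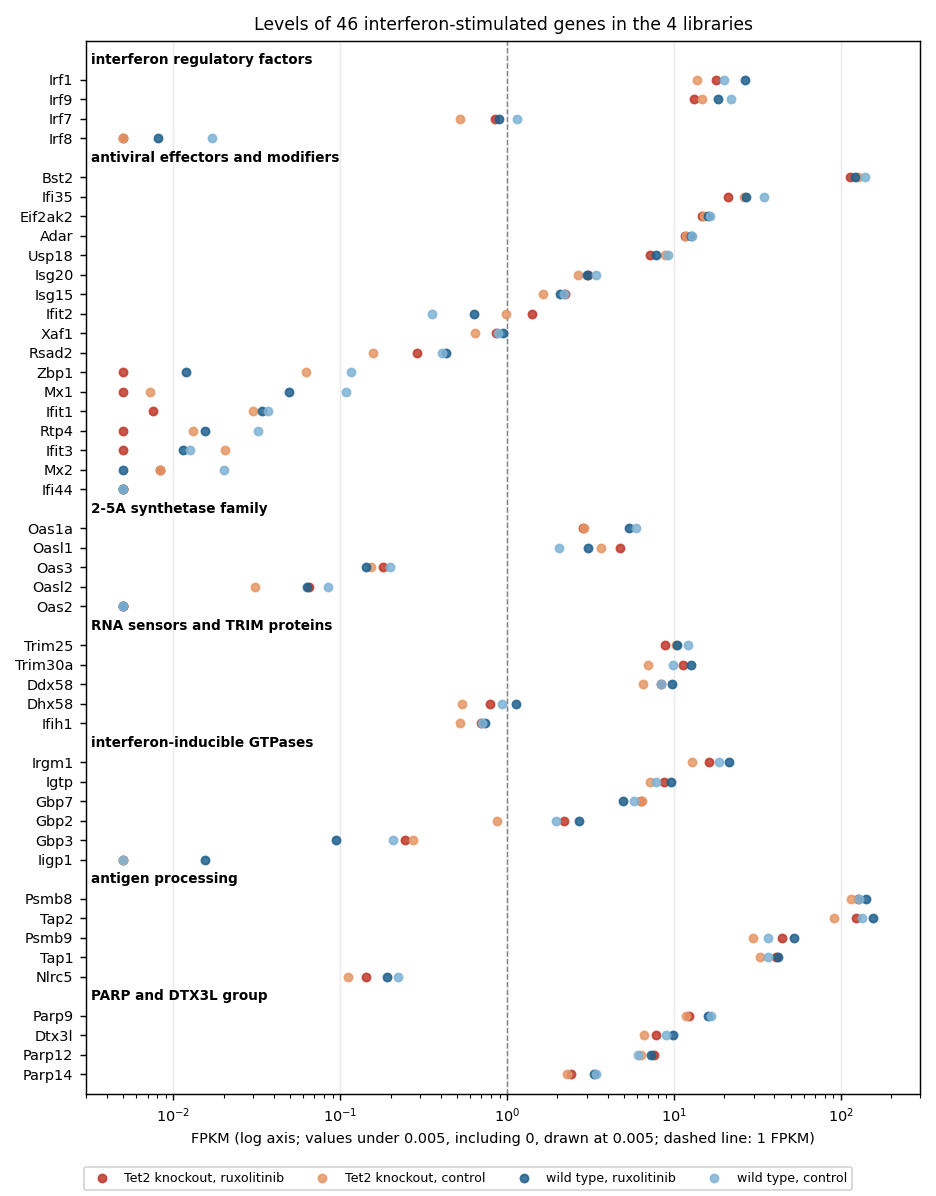
FPKM on a log axis of all 46 members in the 4 libraries, grouped by role and ordered by mean within a role, with values under 0.005 drawn at 0.005. Antigen processing genes other than Nlrc5 lie near or above 30 FPKM in every library, while Ifit1, Ifit3, Mx2, Rtp4, Oas2, Oasl2 and Ifi44 lie under 0.1 FPKM.

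The first question was how these genes differed between the libraries labelled Tet2-/- and Tet2+/+, called knockout and wild type here. Tet2 is an enzyme that oxidises 5-methylcytosine. Without drug, most measured members were lower in the knockout library than in the wild-type library, by small amounts. Of 26 members 23 had a negative log2 ratio of FPKM + 1, against 49.1% of all measured genes, 3 had a positive one, against 50.4%, and their median was -0.28, against 0.00 for all measured genes. Past 1.5-fold, 2 members were lower, against a background of 5.06%, and 1 was higher, against 3.88%. All of these have close paralogs that can share their reads. Rescaled to a common sum of 1000000 per library (TPM), which moves the median of all genes by 0.15, the member median was -0.19 and 16 of 26 were negative, against 29.4% of all genes; Bst2, Usp18, Adar, Eif2ak2, Igtp, Psmb8 and Tap1 then turned positive.

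Oas1a, a 2-5A synthetase that activates RNase L, had the lowest ratio. It was at 2.89 FPKM in the knockout control and 5.88 in the wild-type control library, a log2 ratio of -0.82. The counting intervals, 2.55 to 3.26 and 5.34 to 6.46 FPKM, did not overlap, although close Oas1 paralogs can share its reads. Gbp2, a guanylate-binding protein that coats pathogen vacuoles, was at 0.864 FPKM in the knockout control and 1.96 in the wild-type control library, a log2 ratio of -0.67. Oasl1, which in mouse restrains Irf7 translation, went the other way, at 3.65 FPKM in the knockout control and 2.06 in the wild-type control library, a log2 ratio of 0.60. The measured genes of the 2-5A synthetase family therefore split, and its members Oas2, Oas3 and Oasl2 did not exceed 0.199 FPKM.

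Both measured IRFs were lower in the knockout control library. Irf9, the DNA-binding subunit of the complex that recognises the ISRE, was at 14.6 FPKM in the knockout control and 21.9 in the wild-type control library, a log2 ratio of -0.55. Irf1, a GAS-driven activator of antigen processing genes, was at 13.7 and 19.9 FPKM, for a log2 ratio of -0.50. The 4 measured antigen processing genes had negative ratios with a median of -0.22, led by the peptide transporter subunit Tap2 at 90.7 FPKM in the knockout control and 133.1 in the wild-type control library. Its partner Tap1 was at 32.9 and 36.4 FPKM and the immunoproteasome subunit Psmb9 at 29.7 and 36.5 FPKM in the same libraries.

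Parp9 and Dtx3l, which form an ADP-ribosylating ubiquitin ligase, and Parp14 had log2 ratios of -0.47, -0.39 and -0.43. Parp9 was at 11.7 FPKM in the knockout control and 16.7 in the wild-type control library. The deposited table gives Parp9 and Dtx3l a single locus, chromosome 16, 35926514 to 35972621 in mm10, so reads may have been split between them. Parp12, on chromosome 6, was at 6.34 and 6.10 FPKM, with a ratio of 0.05. Irgm1, an immunity-related GTPase of autophagy, was at 12.9 and 18.5 FPKM, for a log2 ratio of -0.49, and Trim30a at 6.96 and 9.81 FPKM, for a log2 ratio of -0.44. The 7 measured antiviral effectors, Ifi35, Isg15, Isg20, Bst2, Eif2ak2, Adar and Usp18, lay between -0.38 and -0.06, and 4 of them, Bst2, Eif2ak2, Adar and Usp18, turned positive under TPM.

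With ruxolitinib in both genotypes, 21 of 26 members were again lower in the knockout library, against 49.3% of all measured genes, and 5 were higher, against 50.2%, with a median log2 ratio of -0.18. Under TPM the median was -0.06 and 16 of 26 were negative, against 27.4% of all genes, with Bst2, Usp18, Adar, Eif2ak2 and Tap1 turned positive. Past 1.5-fold, 1 member was lower, against a background of 3.34%, and 0 were higher, against 2.97%; no p-value applies. The lower member was Oas1a again, at 2.84 FPKM in the knockout ruxolitinib and 5.39 in the wild-type ruxolitinib library, a log2 ratio of -0.73. Irf1 followed at 17.8 and 26.7 FPKM, for a log2 ratio of -0.56, and Irf9 at 13.1 and 18.3 FPKM, for a log2 ratio of -0.45. Irgm1 stood at -0.37 and Parp9 at -0.36.

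The highest ratios with drug were those of Oasl1 at 0.49, Gbp7 at 0.31 and Isg15 at 0.07. Oasl1 was at 4.73 FPKM in the knockout ruxolitinib and 3.07 in the wild-type ruxolitinib library. Gbp2 was at 2.20 and 2.71 FPKM, for a log2 ratio of -0.21, and Trim30a at 11.3 and 12.6 FPKM, for a log2 ratio of -0.14. Both were nearer the wild-type level than without drug.

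The untreated and the treated genotype pairs share no library, although the labels do not say whether mice were shared between them. Across the 26 members, 21 were negative and 3 positive in both pairs, or 80.8% and 11.5%, against 40.3% and 41.4% of all measured genes. The ratios correlated across genes, which are not independent replicates, with Pearson r = 0.89 and Spearman rho = 0.85. Over all 10471 measured genes the Pearson r was 0.34 and the Spearman rho 0.80. Oas1a had both knockout values below both wild-type values, as did Irf1, Irf9, Ifi35, Adar, Eif2ak2, Irgm1, Psmb8, Trim25, Tap2, Parp9, Parp14 and Dtx3l. Of these, Adar, Eif2ak2 and Psmb8 turned positive without drug under TPM. Oasl1 and Gbp7 had both knockout values above both wild-type values. The share of all measured genes with such an order was not counted.

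In the authors' deposited table, 10 of 26 members were lower at a q-value under 0.05 in the untreated pair, against 9.68% of 11375 genes tested there, and 1 was higher, against 9.37%. In the treated pair, the authors' deposited table gives 5 as lower, against 6.21%, and 1 as higher, against 7.39%. The lower members in both pairs were Irf1, Irf9, Oas1a, Irgm1 and Parp14, and the higher one was Oasl1. Among members under the filter, the authors' deposited table gives Ifit2 as higher in both pairs, with a q-value of 0.000746 in each. It gives Irf7, Rsad2 and Dhx58 as lower in the untreated pair, with q-values of 0.0102, 0.0133 and 0.0404 in the authors' deposited table. Those q-values compare libraries and not genotypes.

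**Figure D2:**
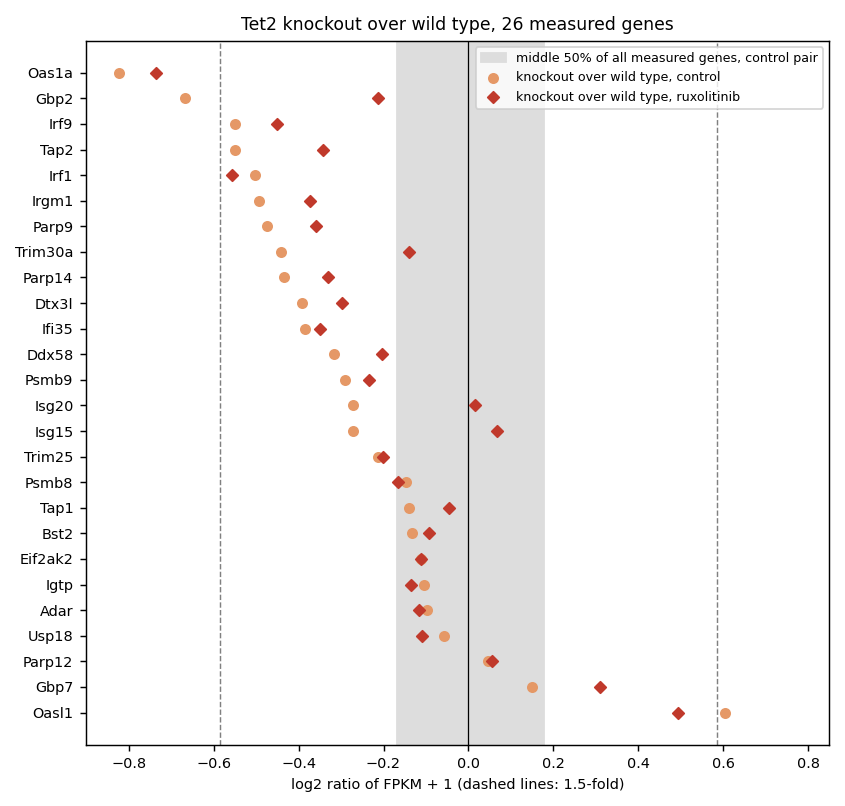
Log2 ratio of FPKM + 1 of Tet2 knockout over wild type for the 26 measured members, without drug (circles) and with ruxolitinib (diamonds), with the middle 50% of all measured genes without drug shaded and dashed lines at 1.5-fold. Of the circles, 23 lie left of 0 and 16 left of the shaded band, Oas1a leads on the left and Oasl1 on the right; the circles of Bst2, Usp18, Adar, Eif2ak2, Igtp, Psmb8 and Tap1 and the diamonds of Bst2, Usp18, Adar, Eif2ak2 and Tap1 turn positive when libraries are rescaled to TPM.

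The second question was how these genes stood with the JAK inhibitor. No measured member passed 1.5-fold lower with ruxolitinib in either genotype. Of all measured genes, 2.20% did in the knockout and 2.64% in wild type, so 0 of 26 lies near the background. Cish and Socs1, which are not members, passed 1.5-fold lower in both. Cish, a STAT5 target and receptor inhibitor chosen after its values were seen, was at 40.7 FPKM with drug and 113.8 without in the knockout, and at 45.1 and 174.1 FPKM in wild type. Socs1, the main brake on interferon receptors, was at 33.5 FPKM with drug and 115.8 without in the knockout, and at 30.0 and 111.4 FPKM in wild type. In the knockout 17 of 26 members were higher with drug, against 50.8% of all measured genes, and 9 were lower, against 48.7%, with a median log2 ratio of 0.18. In wild type 13 of 26 were higher, against 51.9%, and 13 lower, against 47.7%, with a median of 0.05.

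Past 1.5-fold, 2 members were higher with drug in the knockout, against a background of 1.67%, and 0 were lower, against 2.20%. They were Gbp2, at 2.20 FPKM with drug and 0.864 without, a log2 ratio of 0.78, and Trim30a, at 11.3 and 6.96 FPKM, for a log2 ratio of 0.63. Close paralogs can share the reads of both. In wild type no member passed 1.5-fold in either direction, against backgrounds of 1.05% higher and 2.64% lower; no p-value applies, and the authors' deposited table gives the measured members Irf1, Oasl1 and Psmb9, and Ifit2 under the filter, as higher there at a q-value under 0.05. For the knockout, the authors' deposited table gives Trim30a, Gbp2, Psmb9 and Tap2 as higher. Of all genes tested in the authors' deposited table, 2.39% of 11271 were higher and 4.13% lower in wild type, and 4.85% of 11326 were higher and 4.73% lower in the knockout; 0 measured members were lower in either.

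The drug ratios differed between members, and several roles held ratios of both signs. The 4 measured antigen processing genes were higher with drug in both, with medians of 0.37 in the knockout and 0.22 in wild type. Psmb9 led, at 44.7 FPKM with drug and 29.7 without in the knockout, a log2 ratio of 0.57, and at 52.7 and 36.5 FPKM in wild type, a log2 ratio of 0.52. Tap2 was at 122.8 and 90.7 FPKM in the knockout and 155.9 and 133.1 FPKM in wild type. These 4 genes are neighbours on chromosome 17. A separate list of 11 measured class I presentation genes, described below, had medians of only 0.02 in the knockout and 0.05 in wild type. In it 6 were higher with drug in the knockout, against 50.8% of all measured genes, and 7 in wild type, against 51.9%. Irf1 was at 17.8 and 13.7 FPKM in the knockout and 26.7 and 19.9 FPKM in wild type, log2 ratios of 0.36 and 0.41. The GTPases Igtp and Irgm1, the helicase Ddx58, Oasl1 and Parp12 were also higher with drug in both, with log2 ratios between 0.20 and 0.41. In the roles of Irf1, Irgm1, Ddx58 and Oasl1, the members Irf9, Gbp7, Trim25 and Oas1a were lower with drug in both. Parp9 and Parp14, of the role of Parp12, were lower in wild type.

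All 7 measured antiviral effectors had negative drug ratios in wild type, and 5 of 7 did in the knockout, where Isg15 and Isg20 were positive. Ifi35, a leucine zipper protein, was at 21.1 FPKM with drug and 26.3 without in the knockout, a log2 ratio of -0.31, and at 27.1 and 34.7 FPKM in wild type, a log2 ratio of -0.34. Usp18, Bst2, Trim25 and Irf9 had negative ratios in both genotypes, from -0.26 to -0.15. Oas1a, Eif2ak2 and Adar lay between -0.11 and -0.01 in both, and Adar and Eif2ak2 turned positive in wild type under TPM. Thus 13 members were higher and 9 lower with drug in both genotypes, or 50% and 34.6%, against 39.7% and 36.5% of all measured genes, with Pearson r = 0.87 and Spearman rho = 0.88 across the 26 members. The drug pairs of the genotypes share no library. For all measured genes the Pearson r was 0.16 and the Spearman rho 0.68.

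**Figure D3:**
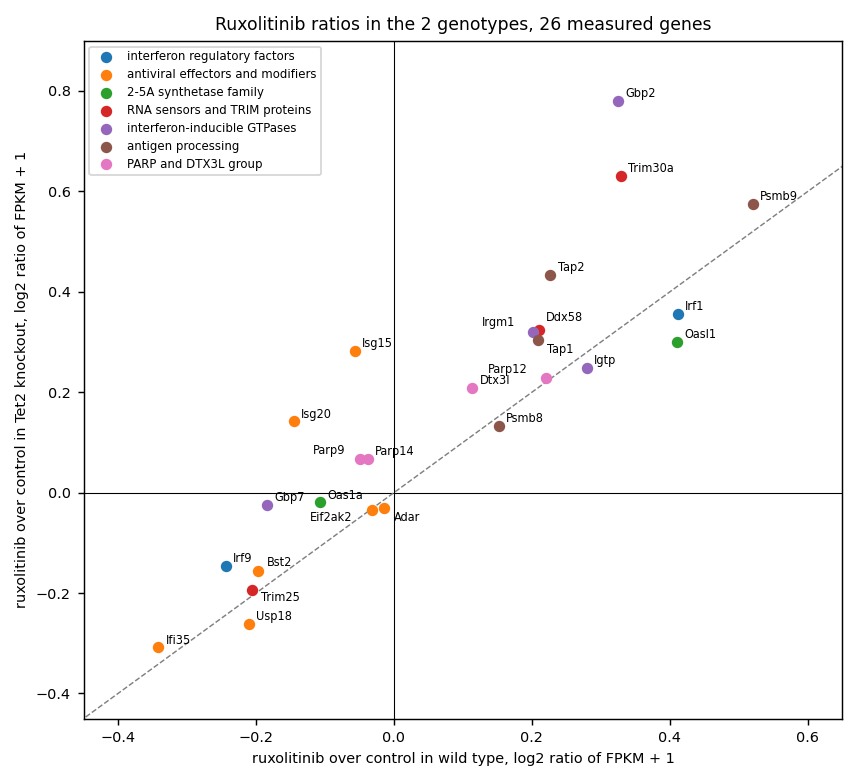
Log2 ratio of FPKM + 1 of ruxolitinib over control in Tet2 knockout (vertical axis) and in wild type (horizontal axis) for the 26 measured members, coloured by role, with equality dashed. Antigen processing genes lie in the upper right and Ifi35, Usp18, Bst2, Trim25 and Irf9 in the lower left; Adar and Eif2ak2, near 0, turn positive in wild type under TPM.

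The signed drug ratio was mostly higher in the knockout than in wild type. For members lower with drug in both genotypes, among them Ifi35, Bst2, Irf9, Oas1a and Gbp7, this means a smaller decrease in the knockout. The difference of the log2 ratios, knockout minus wild type, was positive for 19 of 26 members, against 47.4% of all measured genes, and negative for 7, against 52.6%, with a median of 0.09 and a range from -0.11 to 0.46; Trim25 and Parp12, near 0, turned negative under TPM. No member passed 1.5-fold, against backgrounds of 1.82% higher and 1.14% lower, and no p-value applies to 4 single libraries. The highest differences were those of Gbp2 at 0.46, Isg15 at 0.34, Trim30a at 0.30 and Isg20 at 0.29, and the lowest was that of Oasl1 at -0.11. The knockout control library enters both the untreated genotype ratio and the knockout drug ratio, and it held the lowest value of the 4 libraries for 15 of 26 members, against 32.0% of all measured genes. The wild-type ruxolitinib and wild-type control libraries each held the highest value for 11 members, against 28.2% and 20.2% of all measured genes.

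Few fragments lay behind Isg15, the ubiquitin-like modifier. It was at 2.21 and 1.64 FPKM in the knockout ruxolitinib and control libraries and at 2.06 and 2.19 FPKM in the wild-type ones, from about 64, 50, 55 and 54 fragments. Its counting intervals all overlapped, the lowest running from 1.22 to 2.16 FPKM. For Gbp2 the interval in the knockout control library, 0.709 to 1.04 FPKM, lay below those of the other libraries, the nearest of which began at 1.70 FPKM. These intervals cover counting error only, and close Gbp paralogs can share the reads of Gbp2.

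Neighbours in the genome could be set side by side. Psmb9, Tap1, Psmb8 and Tap2 lie in that order on chromosome 17 between 34182098 and 34216321 in mm10, with gaps of 225, 969 and 3024 bases. Their drug ratios in the knockout were 0.57, 0.30, 0.13 and 0.43, and their genotype ratios without drug were -0.29, -0.14, -0.15 and -0.55, so adjacent genes of the cluster differed in size but not in sign, except that Tap1 and Psmb8 turned positive for genotype under TPM. On chromosome 19, Ifit2, Ifit3 and Ifit1 lie between 34550693 and 34650009, and Ifit2 reached 1.41 FPKM and the other 2 did not exceed 0.0368 FPKM. On chromosome 3, Gbp7, Gbp3 and Gbp2 lie in that order with gaps of 9900 and 47450 bases, and their drug ratios in the knockout were -0.02, -0.03 and 0.78, with Gbp3 under the filter.

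Other genes of the pathway were read from lists chosen by name. Of 10 interferon genes, Ifna1, Ifna2, Ifna4, Ifna5, Ifne, Ifng, Ifnl2 and Ifnl3 were listed at 0 in all 4 libraries, and Ifnb1 and Ifnk did not exceed 0.0367 FPKM. Of 6 receptor chains 5 were measured, and only Ifnlr1 of the type III receptor was not. Ifnar2 was at 38.6 and 40.6 FPKM in the knockout ruxolitinib and control libraries and at 38.2 and 43.5 FPKM in the wild-type ones. Ifngr2, the chain that brings JAK2 to the interferon gamma receptor, was higher in both knockout libraries, at 4.79 and 6.40 FPKM, than in the wild-type libraries, at 2.88 and 4.31 FPKM, with log2 ratios of 0.58 with drug and 0.48 without.

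The receptor kinases and Stat2 were lower in the knockout without drug, with log2 ratios of -0.57 for Jak2, -0.40 for Tyk2, -0.17 for Jak1 and -0.12 for Stat2, of which Stat2 turned positive under TPM. Jak2 was at 24.9 and 24.5 FPKM in the knockout ruxolitinib and control libraries and at 35.1 and 36.8 FPKM in the wild-type ones. Of 9 measured genes of interferon induction, 1 was past 1.5-fold higher in the knockout without drug and 0 were lower, against backgrounds of 3.88% and 5.06%. It was Mb21d1, or cGAS, the DNA sensor that makes cyclic GMP-AMP, at 8.22 FPKM in the knockout control and 4.84 in the wild-type control library. Of 9 brakes, Socs3 was lower in that pair, at 9.77 and 19.0 FPKM. Socs1 and Socs3 alone passed 1.5-fold with drug, both lower in each genotype. The shares of all measured genes that far lower were 2.20% in the knockout and 2.64% in wild type. The median drug ratio of the list was -0.06 in the knockout and -0.09 in wild type. Socs3 was at 2.47 and 9.77 FPKM with and without drug in the knockout and at 1.43 and 19.0 FPKM in wild type, a difference of log2 ratios of 1.41.

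Of 11 measured class I presentation genes, 10 had negative genotype ratios with and 10 without drug, against 49.3% and 49.1% of all measured genes. The medians were -0.28 and -0.18. Under TPM, 6 of 11 stayed negative without drug, against 29.4% of all genes, and 10 with drug, against 27.4%. B2m, the light chain of class I molecules, was at 1172 and 982 FPKM in the knockout ruxolitinib and control libraries and at 1519 and 1341 FPKM in the wild-type ones. Tapbp, which bridges the peptide transporter and class I, was at 63.9 and 56.5 FPKM in the knockout and 90.4 and 82.5 FPKM in wild type. H2-Q4 was past 1.5-fold higher in the knockout in both pairs, at 8.89 and 7.13 FPKM against 4.59 and 3.61 FPKM. H2-T22 was past 1.5-fold lower in the knockout ruxolitinib library, at 6.78 FPKM, than in the wild-type ruxolitinib library, at 10.7 FPKM. The backgrounds were 2.97% higher and 3.34% lower with drug, and 3.88% higher and 5.06% lower without. Class I genes share reads.

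A further 66 interferon-stimulated genes gave 38 measured ones. Without drug 29 of 38 were lower in the knockout, against 49.1% of all measured genes, with a median of -0.23. Under TPM the median was -0.09 and 24 were negative, against 29.4% of all genes. Past 1.5-fold, 8 were lower and 1 was higher, against the same backgrounds of 5.06% and 3.88%. The lower genes were Lgals3bp, a secreted glycoprotein, at 31.4 FPKM in the knockout control and 71.9 in the wild-type control library, the ubiquitin-activating enzyme of ISG15, Uba7, at 32.3 and 60.0 FPKM, and Ifitm1, which blocks viral entry, at 1596 and 2900 FPKM, with Ifi27, Ifi27l2a, Gbp4, Gbp6 and Gbp9. The higher gene was Ifi203, of the nucleic acid sensing PYHIN family, at 3.71 and 2.67 FPKM in the knockout ruxolitinib and control libraries and at 0.00619 and 0.00674 FPKM in the wild-type ones. With drug, 30 of 38 were higher in the knockout, against 50.8% of all measured genes, and 25 in wild type, against 51.9%. The medians were 0.19 and 0.09. Past 1.5-fold with drug, 1 was higher and 2 were lower in the knockout, against backgrounds of 1.67% and 2.20%. In wild type 0 were higher and 1 was lower, against 1.05% and 2.64%. Ifi27l2a was higher in the knockout, with a log2 ratio of 0.85, and Ifitm3 lower, with a log2 ratio of -0.83. Slfn2, a Schlafen family growth regulator, was lower with drug in both, at 28.3 FPKM with and 73.7 without in the knockout and 32.6 and 73.1 FPKM in wild type.

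**Figure D4:**
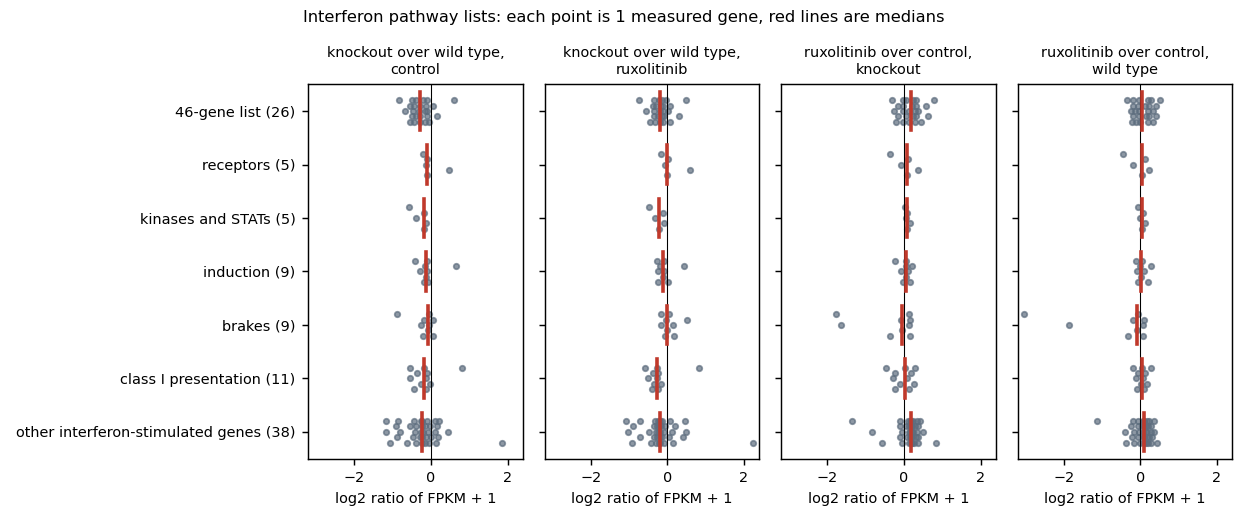
Log2 ratios of FPKM + 1 for measured genes of the 46-gene list and of 6 related lists in 4 comparisons, with 1 point per gene and the median in red. The medians of the 46-gene list and of the other interferon-stimulated genes lie left of 0 in both genotype comparisons, at -0.28 and -0.23 without drug, and the far left points under brakes are Socs3 and Socs1 with drug; in both genotype comparisons the medians of receptors, induction and brakes turn positive under TPM.

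Cell type markers also differed in these comparisons, in both directions within several lists. Of all measured genes, 5.06% were past 1.5-fold lower in the knockout without drug and 3.88% higher. The marker counts also cover listed markers under the filter, such as Mpo, whereas these shares cover measured genes only. In that pair, 3 of 11 mast cell markers were lower and 1 was higher past 1.5-fold. Of 3 basophil markers, 2 were higher and 0 lower. Their summed level was 562.3 FPKM in the knockout control and 412.4 in the wild-type control library. Of the 5 granulocyte progenitor markers 1 was lower and 1 higher past 1.5-fold, Ctsg being at 27.1 and 90.4 FPKM and Mpo at 1.13 and 0.0380 FPKM in the same libraries. With drug, 2 of 9 monocyte and macrophage markers were higher and 1 lower in each genotype, Cx3cr1 being at 6.02 and 2.55 FPKM in the knockout and 14.0 and 7.82 FPKM in wild type. Itgax, the only 1 of 5 dendritic cell markers that was measured, was higher with drug in both genotypes. Its log2 ratios were 1.41 in the knockout and 1.05 in wild type. Tfrc, the only 1 of 5 erythroid markers that was measured, was lower, at -0.66 and -0.72. Of 11 mast cell markers, 2 were past 1.5-fold lower with drug in wild type, Tpsab1 at -1.14 and Hdc at -1.50, and 0 were higher. The summed level of that list was still higher with drug in wild type, at 30131 FPKM against 26440 FPKM. The part of these differences in the members' ratios was not tested.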

How the data were processed

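RNA was extracted from marrow cells, depleted of ribosomal RNA and sequenced, per the labels' protocols. The submitters' processing notes name STAR, Cuffdiff and mm10. Versions, annotation, strand use and scaling between libraries were not found in those sources. The authors deposited FPKM values for 4 libraries and a table of pairwise comparisons with log2 fold changes without a pseudocount, p-values, q-values and a test statistic, which is a score per the file headers. From that table, 4 of 6 comparisons were used, and its statistic and p-values were not.

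Libraries were assigned by the titles in the labels. Ratios are differences of log2(FPKM + 1), so changes of low genes are understated, over genes whose mean reached 1 FPKM. Counts used 1.5-fold. The members, lists and rules were chosen with earlier results of these data known, and the naming rule gave per-library values to measured members past 1.5-fold and to the 4 highest and 4 lowest ratios of each comparison. Values of further members and markers were added after they were seen. Depth was estimated from steps between low values of single-transcript genes over 1500 bases, with 200 bases subtracted from each length, and between 77.3% and 83.1% of them lay within 0.15 of a whole multiple. Fragments behind a member's value take its median GENCODE M21 protein-coding transcript length. Ratios were tested on simulated data. Alternatives were pseudocounts of 0.1 and 5, no filter, a mean of 5 FPKM, centring, TPM, 2-fold and leaving out members with close paralogs. Some results are not reported here. Coordinates of genes are those of the deposited table. The software was matplotlib 3.10.9, scipy 1.17.1, pandas 2.3.3 and numpy 2.4.6 under Python 3.11.15.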

Additional observations from a re-analysis of the deposited data

Results flagged for a closer look

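With 1 library per group, the genes given here had ratios of opposite sign in the compared pairs, several of them near 0. None of these differences was tested. The counting intervals of Isg15 overlapped across all 4 libraries, and so did those of Isg20. With ruxolitinib, Isg15 had a log2 ratio of 0.28 in the knockout and -0.06 in wild type. Isg20 had 0.14 in the knockout and -0.14 in wild type. Parp9 had 0.07 and -0.05, and Parp14 had 0.07 and -0.04, in the same order. For knockout over wild type, Isg15 had 0.07 with ruxolitinib and -0.27 without, and Isg20 had 0.02 with ruxolitinib and -0.27 without.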

How the results depend on the processing

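No paired analysis was possible because each group has 1 library and the labels give no replicate numbers; leaving out a library was likewise not possible. The member median kept its sign under every alternative run in all comparisons but drug in wild type, where it was 0.05 as reported, -0.01 with no filter and -0.02 without members that have close paralogs. With no filter, over 46 members, the medians were -0.139 for the knockout without drug, -0.071 with drug and 0.057 for drug in the knockout, and the members with positive ratios were 6, 10, 27 and, for the difference of the drug ratios, 34. Rescaled to TPM, the treated genotype median was -0.058, 10 members were positive in each genotype comparison, and 1 passed 1.5-fold higher with drug in the genotype comparison and 1 in the difference. A pseudocount of 0.1 likewise gave 1 and 1 there. A pseudocount of 5 left 0 members past 1.5-fold in either direction without drug, 0 lower with drug and 0 higher for drug in the knockout, and the 2-fold rule gave the same 0, 0, 0 and 0. With a mean of 5 FPKM, over 20 members, 0 passed in either direction without drug, 0 were lower with drug, 1 was higher for drug in the knockout, and 2 had a positive genotype ratio with drug. Single members past 1.5-fold kept their sign under the alternatives run for them, but their size moved with the pseudocount. They were Oas1a, Oasl1, Gbp2 and Trim30a, all of which have close paralogs and drop out of the alternative without such members. At pseudocounts of 0.1 and 5, the untreated genotype ratio was -1.10 and -0.25 for Gbp2, -1.0 and -0.46 for Oas1a and 0.80 and 0.29 for Oasl1. The treated one was -0.90 and -0.41 for Oas1a, and the knockout drug ratio was 1.25 and 0.30 for Gbp2 and 0.69 and 0.45 for Trim30a. Depth limits the members with few fragments most, where counting intervals are wide for their level. These include members under 1 FPKM but also the measured Isg15, with about 50 fragments in the knockout control library. Ifih1, under the filter, had about 123 there.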
